A study of Homo sapiens with 26 samples.

Results

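The albumin gene cluster was described here through the ChIP-seq peaks called at its 4 genes: ALB (albumin), AFP (alpha-fetoprotein), AFM (afamin) and GC (vitamin D-binding protein). A peak was a member when it overlapped 1 of these genes, as GENCODE 44 places them on GRCh37, or the 50 kb on either side of it. Of the 399567 peaks in the 5 full peak lists, 48 were members. They comprised 21 of 155652 FOXA1 peaks, 2 of 28831 FOXA1dbd peaks, 14 of 105591 FOXA1nhaa peaks, 11 of 71202 FOXA1rraa peaks and 0 of 38291 HNF4A peaks.

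Chromatin immunoprecipitation followed by sequencing (ChIP-seq) mapped HALO-tagged proteins in human foreskin fibroblasts of the established line BJ, 48 h after the proteins were expressed ectopically. All 5 constructs carried the HALO tag and were precipitated with the same antibody to it. They were FOXA1, its variants FOXA1dbd, FOXA1nhaa and FOXA1rraa, and HNF4A, each with 2 ChIP and 2 input libraries. The labels do not define the variant names. In earlier work on FOXA proteins, NHAA and RRAA stand for alanine substitutions at DNA-contacting residues of the forkhead domain. Each construct is represented by 1 peak list, so no difference between constructs has a replicate check, and no test or p-value is given. Neither expression nor chromatin state was analysed here, so the fibroblast identity of the cells was not checked against marker genes.

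The 4 genes encode plasma carrier proteins of 1 family, secreted mainly by hepatocytes. ALB is the most abundant plasma protein in adults and carries fatty acids and hormones, AFP is its fetal counterpart, AFM carries vitamin E, and GC carries vitamin D metabolites and binds actin. In fetal gut endoderm and liver, FOXA proteins bind an enhancer upstream of Alb before the gene is active, and this site became a textbook example of a pioneer factor, a factor that can bind its target in closed chromatin. Forkhead proteins recognise short cores such as TGTTTAC and TATTTAC, and HNF4A is a nuclear receptor that drives many hepatocyte genes. Fibroblasts do not normally express the 4 genes.

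The genes lie on chromosome 4. ALB (ENSG00000163631.18_13, chr4:74262831-74287199), AFP (ENSG00000081051.8_8, chr4:74296855-74321891) and AFM (ENSG00000079557.5_6, chr4:74347462-74369718) stand in a row on the plus strand, and their 50-kb windows merge into 1 region, chr4:74212831-74419718, of 206888 bp. GC (ENSG00000145321.13_10, chr4:72607413-72669758) lies on the minus strand, and its window of 162346 bp, chr4:72557413-72719758, touches no other member window. Coordinates are 1-based on GRCh37 (hg19). Distances were measured from a peak's centre to the start of the MANE Select transcript, the reference isoform, which begins at 74270004 for ALB, 74301938 for AFP, 74347462 for AFM and 72649796 for GC. The gene records of ALB and AFP begin further upstream, because longer transcripts are annotated. Peaks near ALB are named below by their distance from its start, with a minus sign for upstream, and likewise for the other genes.

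The reference sequences of 8 of the 21 FOXA1 member peaks are given first, because they hold a forkhead core, are shared with FOXA1dbd, or are the highest-scoring or the nearest to the start of ALB, AFM or GC. For peaks longer than 300 bp the central 300 bp are shown. The exception is the ALB peak at -56713, where the last 300 bp are shown because its core lies outside the central stretch. Capitals mark a forkhead core (TGTTTAC or TATTTAC, on either strand, so that the minus strand reads GTAAACA or GTAAATA) or, at 2 peaks, the related TGTTTGC. The highest-scoring ALB peak is not shown, since it reaches into an untranslated region.
ALB peak at -56713, chr4:74213199-74213498, plus strand: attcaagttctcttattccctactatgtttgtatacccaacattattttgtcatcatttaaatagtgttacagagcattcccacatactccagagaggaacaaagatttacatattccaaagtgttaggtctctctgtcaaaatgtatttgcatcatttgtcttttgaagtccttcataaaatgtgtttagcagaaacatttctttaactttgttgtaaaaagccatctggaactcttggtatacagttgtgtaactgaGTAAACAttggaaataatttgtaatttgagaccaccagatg
ALB peak at -2643, chr4:74267211-74267510, plus strand: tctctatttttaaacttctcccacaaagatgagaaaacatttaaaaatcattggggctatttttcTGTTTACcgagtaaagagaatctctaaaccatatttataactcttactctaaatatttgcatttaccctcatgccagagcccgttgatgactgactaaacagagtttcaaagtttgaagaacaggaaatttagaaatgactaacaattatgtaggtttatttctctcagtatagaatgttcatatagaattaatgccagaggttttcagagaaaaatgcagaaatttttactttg
ALB peak at -1758, chr4:74268096-74268395, plus strand: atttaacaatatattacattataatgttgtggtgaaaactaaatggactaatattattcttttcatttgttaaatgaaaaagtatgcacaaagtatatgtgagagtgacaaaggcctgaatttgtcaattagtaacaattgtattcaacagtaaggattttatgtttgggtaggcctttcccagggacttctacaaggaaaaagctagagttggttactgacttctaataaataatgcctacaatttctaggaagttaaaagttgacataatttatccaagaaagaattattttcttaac
AFP peak at -3953, chr4:74297893-74298077, plus strand: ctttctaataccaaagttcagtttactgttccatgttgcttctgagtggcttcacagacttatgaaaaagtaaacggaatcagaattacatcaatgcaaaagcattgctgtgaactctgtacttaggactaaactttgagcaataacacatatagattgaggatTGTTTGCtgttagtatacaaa
AFP peak at 1000, chr4:74302860-74303016, plus strand: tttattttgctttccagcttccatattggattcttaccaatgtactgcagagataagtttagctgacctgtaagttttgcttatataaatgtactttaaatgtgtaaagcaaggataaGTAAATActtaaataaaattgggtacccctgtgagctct
AFM peak at 2069, chr4:74349410-74349651, plus strand: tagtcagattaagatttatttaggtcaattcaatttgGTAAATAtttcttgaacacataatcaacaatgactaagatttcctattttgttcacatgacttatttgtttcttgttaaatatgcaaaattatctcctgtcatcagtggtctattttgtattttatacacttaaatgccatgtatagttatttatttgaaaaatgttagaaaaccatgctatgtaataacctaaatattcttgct
AFM peak at 52930, chr4:74400242-74400541, plus strand: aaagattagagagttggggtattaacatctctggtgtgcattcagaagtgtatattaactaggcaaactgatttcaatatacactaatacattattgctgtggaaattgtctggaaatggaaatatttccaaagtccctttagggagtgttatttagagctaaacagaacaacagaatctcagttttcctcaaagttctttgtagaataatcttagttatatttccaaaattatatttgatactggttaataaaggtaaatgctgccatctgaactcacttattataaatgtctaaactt
GC peak at 51750, chr4:72597917-72598174, plus strand: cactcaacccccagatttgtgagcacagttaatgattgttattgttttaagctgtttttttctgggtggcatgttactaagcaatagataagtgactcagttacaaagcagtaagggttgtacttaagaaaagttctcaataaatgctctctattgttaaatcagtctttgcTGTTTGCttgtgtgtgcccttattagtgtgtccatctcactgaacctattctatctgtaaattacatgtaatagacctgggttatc

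The FOXA1dbd peaks lay inside the sequences of the AFP peak at -3953 and the AFM peak at 2069. At AFP the FOXA1dbd peak was only 27 bp long (chr4:74298051-74298077) and contained the TGTTTGC that begins at 74298057. At AFM it covered chr4:74349410-74349595 and contained the GTAAATA that begins at 74349447, which is outside the 200 bp around its summit. The ALB peak at -1758 and the AFM peak at 52930 scored high and held neither form in the printed bases.

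Promoter sequences of ALB, AFP and AFM were taken from RefSeq on GRCh38.p14, where the 3 of 4 genes were matched, and found again letter for letter on GRCh37. The 250 bases before each start are shown for each matched gene. None of the 6 lists, the down-sampled FOXA1 list included, had a peak in them.
ALB promoter, chr4:74269754-74270003, plus strand: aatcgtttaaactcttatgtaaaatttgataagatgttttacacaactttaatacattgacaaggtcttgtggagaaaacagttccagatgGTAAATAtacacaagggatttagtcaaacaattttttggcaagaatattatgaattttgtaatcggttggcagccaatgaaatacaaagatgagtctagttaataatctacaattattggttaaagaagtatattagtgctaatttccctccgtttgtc
AFP promoter, chr4:74301688-74301937, plus strand: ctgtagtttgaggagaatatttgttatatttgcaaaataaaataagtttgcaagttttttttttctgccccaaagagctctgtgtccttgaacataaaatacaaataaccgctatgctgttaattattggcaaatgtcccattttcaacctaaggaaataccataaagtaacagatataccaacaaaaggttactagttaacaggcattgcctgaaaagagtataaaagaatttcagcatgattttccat
AFM promoter, chr4:74347212-74347461, plus strand: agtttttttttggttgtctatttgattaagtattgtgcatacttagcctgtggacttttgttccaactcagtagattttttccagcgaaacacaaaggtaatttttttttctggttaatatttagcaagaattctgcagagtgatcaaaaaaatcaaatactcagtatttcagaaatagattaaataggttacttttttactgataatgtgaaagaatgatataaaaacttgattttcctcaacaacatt
The ALB promoter held 1 GTAAATA (capitals), a TATTTAC on the minus strand. The AFP and AFM promoters held no TGTTTAC or TATTTAC. Of 18922 promoter windows of 300 bp at protein-coding MANE Select transcripts, 766 (4.05%) held a forkhead core.

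At ALB, FOXA1 peaks stood on both sides of the start and none lay in the promoter bases shown above. The 7 FOXA1 peaks nearest to ALB had scores between 37 and 211, where the score is the authors' value for the peak and the median of the FOXA1 list was 124. The highest-scoring was in intron 3 at 2524 (chr4:74272093-74272963), with a score of 211, followed by the peak at -1758 (chr4:74268072-74268419), with 199, and the peak at -2643 (chr4:74267209-74267512), with 134. These 3 were the ALB peaks above the list median, and all of them lay within 3 kb of the reference start. The intron 3 peak was also the widest FOXA1 member, at 871 bp, and it reached into annotated untranslated sequence. A second intron 3 peak at 3453 had a score of 101, and a peak in intron 10 at 12648 had 88. Further upstream, the peak at -16502 had a score of 75 and the peak at -56713 a score of 37.

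Of the 7 ALB peaks, 3 were overlapped by a variant. The peak at -56713 was overlapped by FOXA1nhaa, whose own peak there scored 74 in its list. The peaks at -16502 and 2524 were also in the FOXA1rraa list, but those 2 rows of the FOXA1rraa list are rows of the FOXA1 list, with the same coordinates and peak name. The 2 peaks nearest to the ALB start on its upstream side, at -1758 and -2643, were in no variant list, and the nearest variant peaks lay 3673 and 4303 bp from their edges. FOXA1nhaa had its own peak at -20811 (chr4:74249056-74249659, score 110), outside FOXA1 peaks and with a forkhead core. FOXA1rraa had peaks outside FOXA1 peaks at -19338 (chr4:74250524-74250963, score 67) and at -7255 (chr4:74262664-74262905, score 50). The last of these spans the most upstream annotated start of ALB. No variant had a peak of its own calling between -7255 and the end of ALB once FOXA1 rows were set aside.

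**Figure D1:**
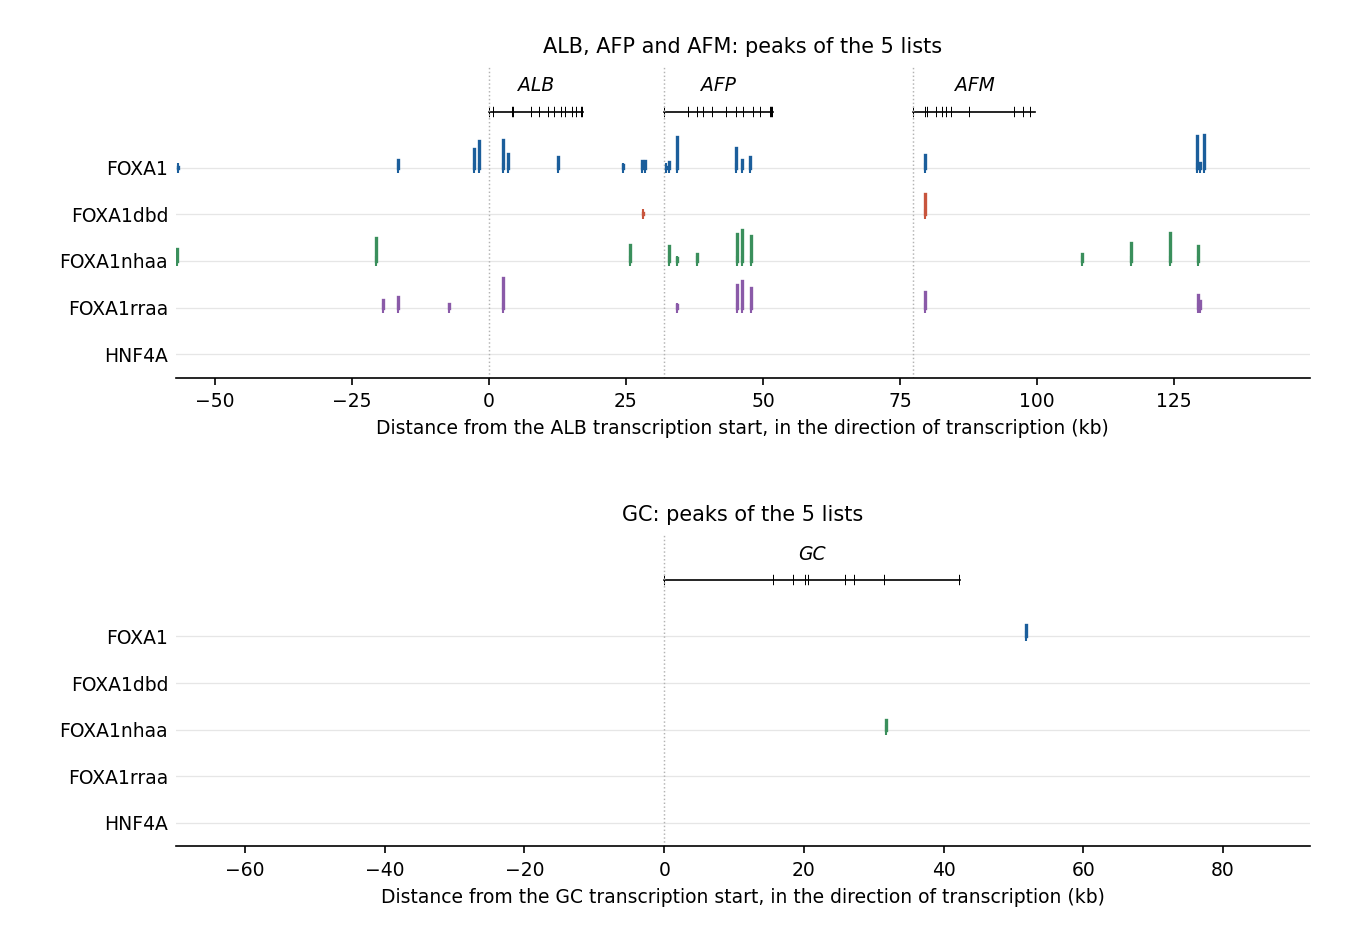
Peaks of the 5 lists along the ALB, AFP and AFM region (top) and the GC region (bottom), with distance from the ALB or GC start in kb on the x axis; boxes are exons of the MANE Select transcript, dotted lines are transcription starts, and the height of each bar is the percentile of the peak's score within its own list. The FOXA1 row holds 20 peaks in the top panel and 1 in the bottom panel, and the HNF4A row is empty in both.

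AFP had 9 of the 21 FOXA1 members nearest to it, more than any other of the 4 genes, and most lay inside the gene. Of the 9, 7 are described here, so the scores given do not span the full range at AFP. The peak at 1000 in intron 2 had a score of 67. A group of 3 peaks lay in the later part of the gene. The first, centred in exon 9 at 13188 (chr4:74314836-74315416), had a score of 141. The other two, in introns 10 and 11 at 14178 and 15767, had scores of 77 and 90. Upstream of the reference start, the peak at -7485 had a score of 54. The rows at -3953 and -3439 both had 69 and share 1 peak name, so they are pieces of 1 called peak.

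Of the 9 AFP peaks, 6 were overlapped by a variant, and 4 of these were overlapped by both FOXA1nhaa and FOXA1rraa, among them those at 13188, 14178 and 15767. At all 4 of them the FOXA1rraa row is a row of the FOXA1nhaa list, with the same coordinates and name, so the 2 lists do not provide separate calls there. The FOXA1nhaa peaks at the 3 named sites scored 133, 167 and 118, in the same order. The peak of 167 in intron 10 (chr4:74315928-74316361) was the highest-scoring FOXA1nhaa member, at percentile 87.3 of its list (the rank of the score as a share of the list) and with a fold enrichment of 8.31. The FOXA1 peak that it overlaps scored 77, at percentile 23.4 of the FOXA1 list. The FOXA1 peak at 1000 was overlapped by FOXA1nhaa alone (score 80) and the peak at -3953 by FOXA1dbd alone (score 29). FOXA1nhaa also had peaks outside FOXA1 peaks at -6217 (score 86) and in exon 5 at 6105 (score 61).

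AFM had 1 FOXA1 peak inside the gene and a group beyond its end. The peak in intron 1 at 2069 (chr4:74349410-74349651) had a score of 99, and it was the 1 site among the 48 members where FOXA1, FOXA1dbd and FOXA1rraa rows met. The FOXA1dbd peak there, with a score of 69, a fold enrichment of 5.88 and percentile 58.4 in its list, was the higher-scoring of the 2 FOXA1dbd members. The 2 carry different peak-name prefixes, IP1 at AFM and IP3 at AFP, so their scores may not be on a common scale. The FOXA1rraa row at the AFM peak at 2069 is a FOXA1 row. The other 3 FOXA1 peaks stood about 30 kb past the end of AFM. The first overlapped the non-coding gene LINC02499 at 29563 bp past the end (chr4:74399008-74399554, score 309) and was overlapped by FOXA1nhaa and FOXA1rraa. The FOXA1rraa row at this first peak is a FOXA1nhaa row. The second, 30057 bp past the end (chr4:74399674-74399876), scored 62 and was shared with FOXA1rraa through a FOXA1 row. The third, 30674 bp past the end (chr4:74400141-74400642), was the highest-scoring FOXA1 member, with 326 at percentile 93.3, and was in no variant list. The edges of the nearest FOXA1rraa and FOXA1nhaa peaks lay 264 and 534 bp from it. Between AFM intron 1 and this group, 49356 bp held no FOXA1 peak, the longest such gap inside the merged region. FOXA1nhaa had 3 peaks in that gap (scores 61, 92 and 143), all of them in LINC02499.

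GC stood apart from the other 3 genes. Its window held 1 FOXA1 peak and 1 FOXA1nhaa peak, and no peak of the other lists. The FOXA1 peak (chr4:72597917-72598174, score 93, percentile 33.1) lay 9368 bp past the end of the gene and was in no variant list. The FOXA1nhaa peak lay in intron 11 (chr4:72617780-72618270, score 68, fold enrichment 5.24) and overlapped no FOXA1 peak. The nearest FOXA1 peaks on either side of the GC peak began or ended 128350 bp before it and 288624 bp after it, so the gene body and its upstream flank held none. In the merged ALB, AFP and AFM region FOXA1 had 96.7 peaks per Mb, against 6.16 per Mb in the GC window, 62.2 per Mb on chromosome 4 and 54.5 per Mb in the genome. The 2 windows are much alike in base composition, with 37.1% and 37.2% G and C.

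**Figure D2:**
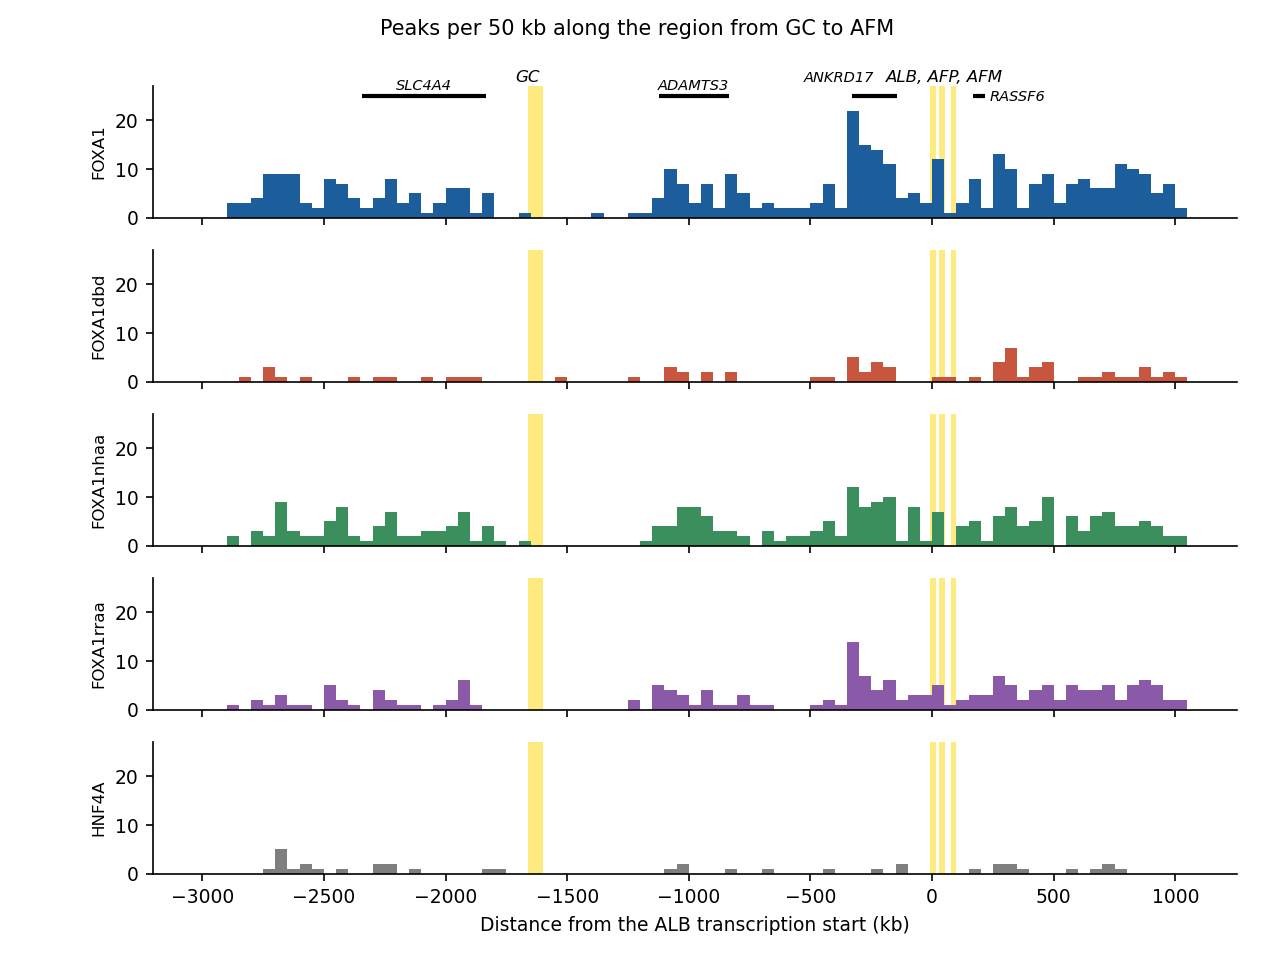
Number of peaks of each list per 50 kb against the distance from the ALB transcription start in kb; yellow bands mark the 4 genes and black bars 4 neighbouring genes. FOXA1 reaches 12 peaks in the bin that starts at the ALB start and 22 in the bin 350 kb upstream of it, and is near 0 around GC.

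The FOXA1nhaa and FOXA1rraa lists were also denser in the merged region than in the genome, with 62.8 against 36.9 and 53.2 against 24.9 peaks per Mb. FOXA1dbd, with 9.67 against 10.1 peaks per Mb, was not. These densities depend on which rows of a list were kept. Peak names carry numbers that rise along each chromosome, and gaps in them show names that are not in the list. In the merged region 19 of 28 consecutive FOXA1 numbers are present, as are 13 of 18 FOXA1nhaa numbers. Over the whole lists 70.5% of the FOXA1 numbers, 62.1% of the FOXA1nhaa numbers of the same series and 96.0% of the HNF4A numbers are present. Lower shares are present in the FOXA1dbd list, with 47.8% for names that begin with IP1 and 17.7% for IP3. For the FOXA1rraa names that begin with Nonspecific_FOX the share is 8.07%. The labels do not say what the missing names were, so the absence of a row at a site is not a measured absence of binding.

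With 21 FOXA1 members, their sharing with each variant could not be told apart from the sharing over the whole FOXA1 list. Overlap means at least 1 shared bp, and each interval is a 95% Wilson interval, so that only the counting error over peaks enters it. The variant with the shortest list shared the fewest. FOXA1dbd overlapped 2 of 21 members (9.52%, interval 2.65% to 28.9%), against 17.3% of the whole list. FOXA1nhaa overlapped 7 of 21 (33.3%, interval 17.2% to 54.6%), against 39.7%. FOXA1rraa overlapped 9 of 21 (42.9%, interval 24.5% to 63.5%), against 39.9%, and without its FOXA1 rows 5 of 21 (23.8%, interval 10.6% to 45.1%), against 25%. All 5 of these overlaps come from FOXA1rraa rows that are FOXA1nhaa rows. No FOXA1 member was overlapped by a FOXA1rraa row found in neither of those 2 lists. Many members were thus in the FOXA1 list alone. None of the variants overlapped 9 of 21 members, against 41.5% of the list, and without FOXA1 rows in the FOXA1rraa list 12 of 21 (57.1%, interval 36.6% to 75.5%), against 53.2%. No member was overlapped by all 3 variants, against 8.21% of the list; with 21 members the interval reaches 15.5%. Every one of these intervals includes the whole-list share.

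**Figure D3:**
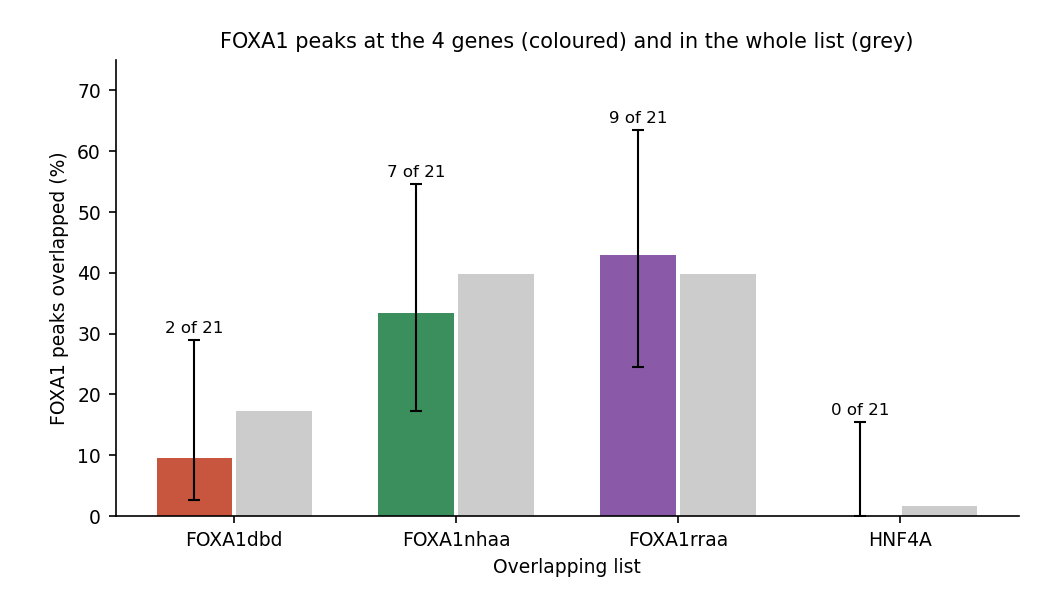
Share of FOXA1 peaks overlapped by each other list, in percent, for the 21 FOXA1 peaks at the 4 genes (coloured bars, with 95% Wilson intervals and counts above) and for the whole FOXA1 list (grey bars). Each interval includes the grey bar beside it, and HNF4A overlaps 0 of 21.

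Counted from the variants, both FOXA1dbd members overlapped a FOXA1 peak, where 96.2% of the whole FOXA1dbd list did. Each of the 2 lies inside a FOXA1 row and shares an edge with it, the end at 74298077 or the start at 74349410. The labels do not say whether the FOXA1dbd list was made with FOXA1 peaks in hand, so this overlap may not be independent of the FOXA1 list. Of the 14 FOXA1nhaa members, 7 did (50%, interval 26.8% to 73.2%), against 58.4% of their list. Of the 11 FOXA1rraa members, 9 did (81.8%, interval 52.3% to 94.9%), against 86.8%. The FOXA1rraa share follows in part from how its list is made up. Of its 11 members, 4 are FOXA1 rows (32.6% in the whole list), 5 are FOXA1nhaa rows (57.9%) and 2 carry a name of their own, Nonspecific_FOX (9.46%). The 2 with that name are the ALB peaks at -19338 and -7255, neither of which overlaps a FOXA1 peak. No FOXA1rraa member over AFP or AFM was therefore independent of the FOXA1 and FOXA1nhaa lists.

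The 12 FOXA1 members in any variant list were found in like shares above and below the list's median score. Of the 7 members above the list's median score, 4 were in a variant list, and of the 14 others, 8 were (57.1% in each case). Over the whole list the shares were 72.3% and 45.1%. By gene, a variant overlapped 3 of 7 peaks nearest to ALB, 6 of 9 nearest to AFP, 3 of 4 nearest to AFM and 0 of 1 nearest to GC. The most common pattern was FOXA1nhaa with FOXA1rraa (5 peaks, 4 of them in AFP and 1 past AFM), followed by FOXA1rraa alone (3), FOXA1nhaa alone (2), FOXA1dbd alone (1) and FOXA1dbd with FOXA1rraa (1). All 3 of the peaks with FOXA1rraa alone rest on FOXA1 rows. At all 5 peaks with FOXA1nhaa and FOXA1rraa, the FOXA1rraa row is a FOXA1nhaa row, so that pattern does not hold separate calls of the 2 variants.

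**Figure D4:**
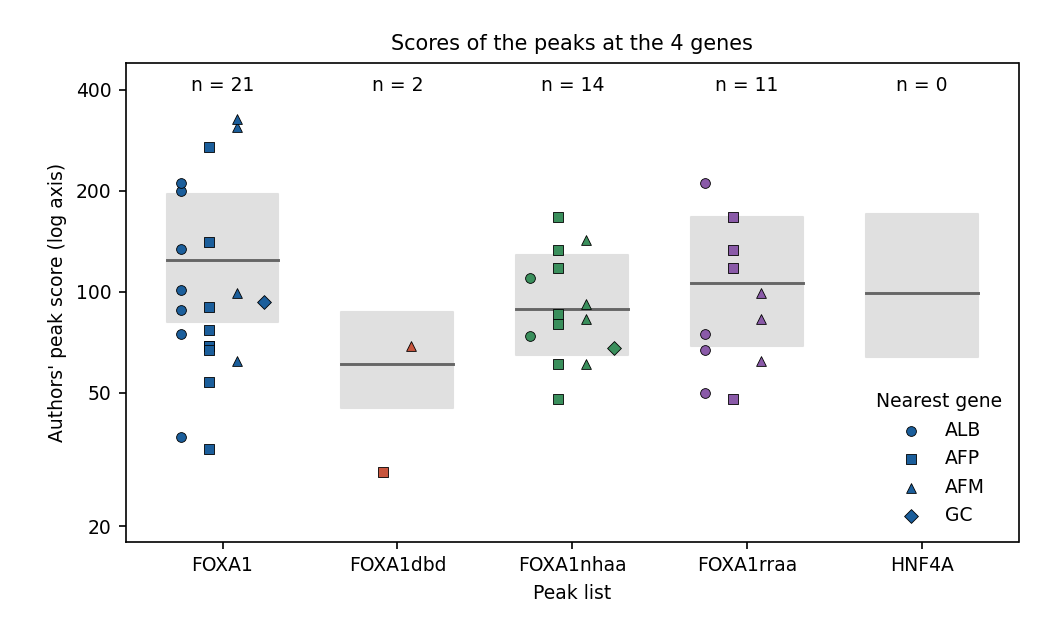
The authors' peak score (log axis) of the member peaks in each list, with the nearest gene as the marker shape; grey boxes span the middle 50% of the whole list and the line is its median. FOXA1 members range from 34 to 326, and 7 of 21 lie above the list median of 124.

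In each list with members, the median score of the members was below that of the list, though its interval included the list's middle. The median score of the FOXA1 members was 90 against 124 for the list, and that of FOXA1nhaa 84.5 against 89. That of FOXA1rraa was 83 against 106, and that of FOXA1dbd 49 against 61. As score percentiles, these medians had order-statistic intervals of 18.29 to 57.35 for FOXA1 and 21.15 to 77.33 for FOXA1nhaa. They were 9.535 to 75.04 for FOXA1rraa and 4.497 to 58.43 for FOXA1dbd, the latter spanning its 2 members. By fold enrichment, member medians were above the list's for FOXA1nhaa (5.863 against 5.736) and FOXA1dbd (5.213 against 5.176). For FOXA1rraa the member median was below (5.305 against 5.861). The FOXA1rraa scores are those of the mixed rows described above, so their order within that list may not be on a common scale either. The same limit holds for the FOXA1dbd list, whose 2 members carry different peak-name prefixes. Of the members, 7 of 21 FOXA1, 6 of 14 FOXA1nhaa, 4 of 11 FOXA1rraa and 1 of 2 FOXA1dbd peaks were above their list's median. Scores from different lists are not on a common scale, and a score or fold enrichment is used here only to rank peaks within a list. The widths of the members had medians of 258 bp for FOXA1 (300 bp in the list), 366.5 bp for FOXA1nhaa (357 bp) and 304 bp for FOXA1rraa (367 bp). The median share of G and C in the central 200 bp was 32.5% for the FOXA1 members and for the FOXA1 list alike.

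Forkhead cores were found in few members. The core TGTTTAC or TATTTAC stood in the central 200 bp of 3 of 21 FOXA1 members (14.3%, interval 4.98% to 34.6%), against 18.2% of the FOXA1 list. These 3 are the ALB peak at -2643, the AFP peak at 1000 and the AFM peak at 2069. With the whole peak searched, the ALB peak at -56713 was added, giving 4 of 21 against 26.5%. With TGTTTGC searched too, 6 of 21 members held a form in the central 200 bp (28.6%, interval 13.8% to 50%), against 23%. The peaks added by TGTTTGC were the AFP peak at -3953, the GC peak and the AFM peak of score 62 past the gene's end. In the variants, the core stood in 0 of 2 FOXA1dbd members (22.1% of the list), 1 of 14 FOXA1nhaa members (13.6%) and 0 of 11 FOXA1rraa members (20%). With the whole peak searched, or with TGTTTGC added, these became 1 of 2 FOXA1dbd and 2 of 11 FOXA1rraa members, and around midpoints 1 of 2 and 1 of 11. The window was centred on the summit for the variant members, except the FOXA1dbd peak at AFP, which does not contain its summit. For that peak, and for the FOXA1 list, which gives no summit, it was centred on the midpoint. The AFM row at 2069, with the same coordinates in the FOXA1 and FOXA1rraa lists, therefore counts as holding a core for FOXA1 and not for FOXA1rraa.

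The merged region held 105 forkhead cores, 45 TGTTTAC and 60 TATTTAC, of which 4 (3.81%) lay in FOXA1 peaks. Of the 1140751 cores in the genome, 51081 (4.48%) did. The GC window held 75 cores and none lay in a peak of any list. The HNF4 core searched, CAAAGTCCA on either strand, occurred 6 times in the merged region and 5 times in the GC window, none of them in a peak of any list, and in 0 of 21 FOXA1 members (0.261% of the list). The AP-1 site TGANTCA, read by factors that are abundant in fibroblasts, stood in the central 200 bp of 4 of 21 FOXA1 members (19.0%, interval 7.67% to 40.0%), against 15.0% of the list. These were the ALB peaks at -16502 and 2524, the AFP peak at -7485 and the GC peak. A match is a run of letters and not a measured site, and each interval given here includes the share in the whole FOXA1 list.

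HNF4A had no peak within 50 kb of any of the 4 genes, although 83.5% of 20162 protein-coding genes had one. The nearest HNF4A peaks were centred 129154 bp upstream of the ALB start, 161088 bp upstream of the AFP start, 117556 bp downstream of the AFM start and 153050 bp downstream of the GC start. HNF4A overlapped 0 of the 21 FOXA1 members, against 1.68% of the FOXA1 list, and the interval of 0 of 21 reaches 15.5%. HNF4A peaks were also sparser on chromosome 4 as a whole, at 7.51 per Mb, than in the genome, at 13.4 per Mb. The other lists had a peak near most genes of the genome: FOXA1 within 50 kb of 87.1%, FOXA1dbd of 59.6%, FOXA1nhaa of 81.8% and FOXA1rraa of 74.9%. All 4 members had a FOXA1 and a FOXA1nhaa peak, and ALB, AFP and AFM had a FOXA1dbd and a FOXA1rraa peak. The presence of such a peak is therefore near the background of protein-coding genes.

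Ranked among those genes by FOXA1 peaks per Mb of gene and flanks, ALB (128.6 per Mb, 16 peaks) stood at percentile 87.9, AFP (128.0 per Mb, 16 peaks) at 87.7, AFM (98.2 per Mb, 12 peaks) at 78.6 and GC (6.16 per Mb, 1 peak) at 14.0. The windows of the first 3 overlap, so they share peaks. The value at AFM depends on the flank: with 25-kb flanks AFM had 1 FOXA1 peak (13.8 per Mb, percentile 27.1), near GC (1 peak, 8.90 per Mb, percentile 22.9), and ALB and AFP stayed at percentiles 91.3 and 91.1. The median gene had 40.0 per Mb. The neighbours on chromosome 4 were similarly dense, with a median of 114.0 per Mb over 7 genes. That median is the value of RASSF6, whose window overlaps the AFM window, and some neighbours also share peaks with each other. COX18 (247.0 per Mb) and ANKRD17 (238.2 per Mb), which neighbour the cluster upstream of ALB, and RASSF6 (114.0 per Mb), next to AFM, are not liver-specific genes. ANKRD17 alone had 68 FOXA1 peaks in its window. NPFFR2, the next of these genes on the upstream side of GC, had 9.24 per Mb, near the value at GC.

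**Figure D5:**
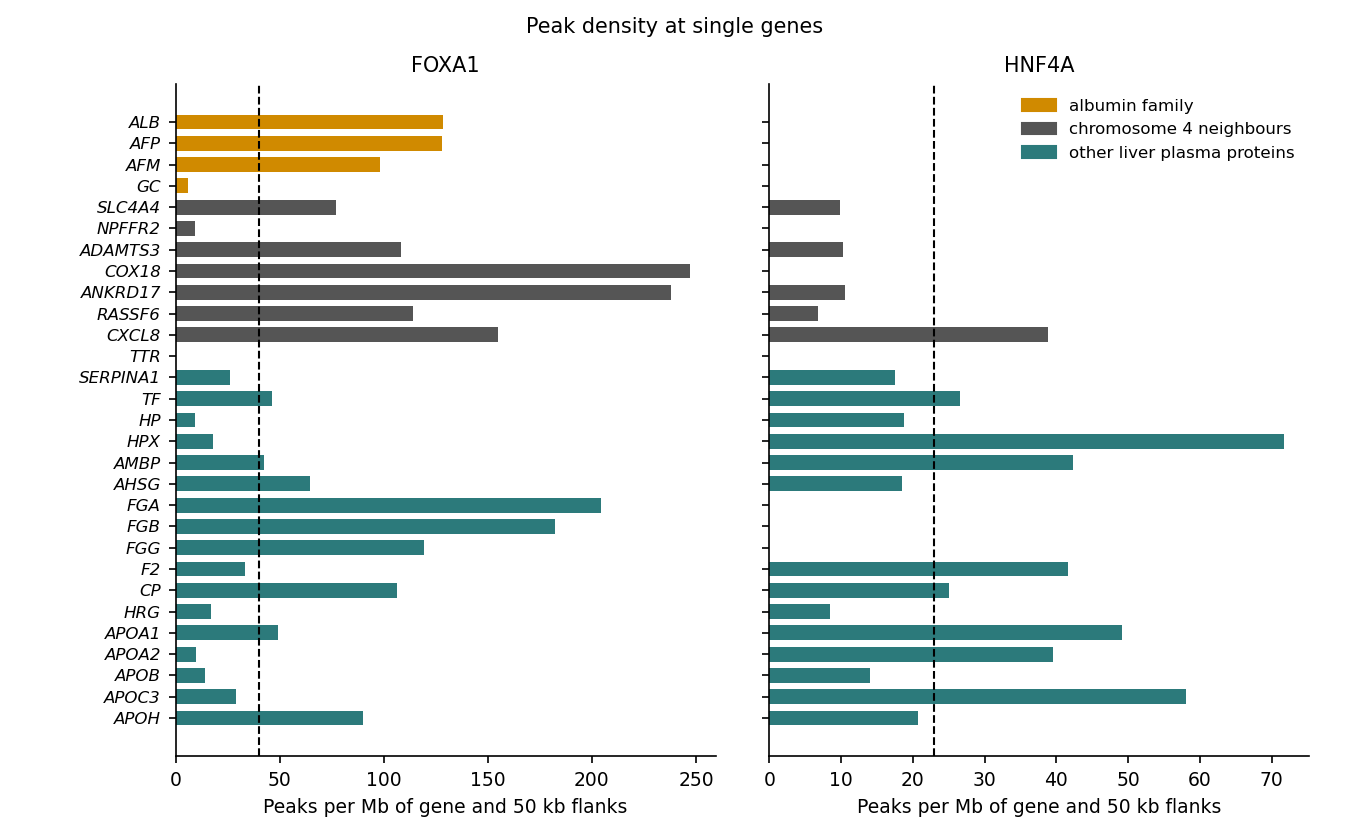
Peaks per Mb of gene and 50-kb flanks for FOXA1 (left) and HNF4A (right) at the 4 albumin family genes, 7 neighbours on chromosome 4 and 18 other genes of liver plasma proteins; the dashed line is the median of 20162 protein-coding genes. FOXA1 runs from 6.16 at GC to 128.6 at ALB among the 4 genes, and HNF4A is 0 at all 4.

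Other genes of liver plasma proteins, listed with the earlier results known, were compared in the same way. Of 18 such genes, 17 had a FOXA1 peak within 50 kb, and their median of 37.8 per Mb was near that of all genes. TTR, which encodes the thyroxine carrier transthyretin, had none. The fibrinogen genes FGA, FGB and FGG, which are also clustered on chromosome 4, resembled ALB and AFP in both lists: they had 204.4, 182.2 and 119.4 FOXA1 peaks per Mb and 0 HNF4A peaks. Their windows overlap and share peaks, so they are not separate cases. HNF4A had a peak at 14 of the 18, with a median of 19.8 per Mb against 22.9 for all genes. The 4 without one were the fibrinogen genes and TTR. Around the albumin cluster, 5 of the 7 neighbours had an HNF4A peak, COX18 and NPFFR2 being the exceptions.

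The down-sampled FOXA1 list, with as many peaks as the HNF4A list, held 3 of the 21 FOXA1 members (14.3%, interval 4.98% to 34.6%), against 24.6% of all FOXA1 peaks. They comprise the AFP peak at 1000, another AFP peak and the AFM peak of score 62. Their scores in that list equal those in the full list, and they are a subset of its rows. No ALB or GC peak was in the down-sampled list.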

How the data were processed

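ChIP-seq of 5 HALO-tagged constructs in BJ fibroblasts gave 6 deposited peak lists, with 1 full list per construct and a down-sampled FOXA1 list. Groups come from the sample titles. The H2B samples were not analysed here. The submitters' processing notes name Bowtie2 2.3.4.1, Picard, GATK 4.2.6.0, bedtools 2.27.1, MACS2 2.2.7.1, deepTools 3.5.0 and hg19, with no role or order. Whether peaks were called per library or on pooled libraries, and how inputs were used, is not given in the sources used here. The deposited lists hold a score per peak as the authors' peak caller gave it. The 4 lists other than FOXA1 also hold a deposited fold enrichment (a ratio), the deposited −log10 p-value and −log10 q-value, and the summit's offset. No read counts are given, so the depth is unknown, and Wilson intervals cover counting error over peaks only.

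Peaks were used as deposited, with rows of identical coordinates counted once. No peak end lay beyond its GRCh37 chromosome (0 cases). Overlap needed at least 1 bp. Motifs were searched on both strands of GRCh37, in a central window of 200 bp. Its centre was the summit for rows that contain their summit and the midpoint for all others. Members were set beside whole lists, 20162 protein-coding genes, 7 neighbours and 18 liver genes by counts and shares, without a test. The members and lists were chosen with earlier results of these data known. The AP-1 search and the MANE Select span were added after the data were seen. Sites named follow the rule that sites shared by several lists, the highest-scoring and the start-nearest FOXA1 peaks of each gene, and the top-scoring member of the other lists are described. The rule was not followed in full at AFP, where 2 peaks are counted and not reported here one by one. The remaining members were named to account for them. The code was tested on simulated data. Python 3.11.15, pandas 2.3.3, numpy 2.4.6, SciPy 1.17.1 and matplotlib 3.10.9 were used.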

Additional observations from a re-analysis of the deposited data

How the results depend on the processing

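Of 124 alternative values, 100 stayed within a tolerance and 24 moved beyond it. The tolerance was 1.5 times for a count, the 95% Wilson interval for a share and a 95% interval from order statistics for a median percentile. It is wide for lists with few members, and within it the following values changed by 1.5 times or more. The share of FOXA1 members near FOXA1dbd was 14.3% with peaks within 500 bp (from 9.52%), and that overlapped by FOXA1rraa was 28.6% in the top 50% by score (from 42.9%). The share with a forkhead core rose from 0.0% to 18.2% for FOXA1rraa with the whole peak searched or TGTTTGC added, to 9.09% around midpoints and to 11.1% with 100-kb flanks. For FOXA1dbd it rose from 0.0% to 50% (whole peak, TGTTTGC, midpoints or 100-kb flanks), for FOXA1 from 14.3% to 28.6% (TGTTTGC) and for FOXA1nhaa from 7.14% to 15.4% (100-kb flanks). The median percentile of FOXA1dbd was 16.3 by width and 47.9 by fold enrichment, against 31.5 by score. The cause was not tested except where the setting itself fixes the number of peaks or bases searched. With flanks of 100 kb the member counts were 33 for FOXA1 (from 21), 4 for FOXA1dbd (from 2), 26 for FOXA1nhaa (from 14), 18 for FOXA1rraa (from 11) and 1 for HNF4A (from 0). With gene bodies only they were 14 for FOXA1, 7 for FOXA1nhaa and 7 for FOXA1rraa. The FOXA1 count, down from 21, changed by 1.5 times and so stood at the edge of the tolerance. Of 18 other liver genes, 6 had a FOXA1 peak with gene bodies only (from 17). In the top 50% of each list by score, 7 FOXA1, 1 FOXA1dbd, 6 FOXA1nhaa and 4 FOXA1rraa peaks remained members. FOXA1dbd then overlapped 0.0% and FOXA1nhaa 14.3% of the FOXA1 members. With as many highest-scoring peaks as the shortest list holds, FOXA1, FOXA1nhaa and FOXA1rraa had 3 members each, and the down-sampled FOXA1 list had 3. Without its FOXA1 rows, the FOXA1rraa list had 7 members and overlapped 23.8% of the FOXA1 members, in every case through a FOXA1nhaa row. The share of FOXA1 members with a forkhead core (14.3%) was 4.76% in the central 100 bp and 4.76% with TGTTTAC alone. That of FOXA1nhaa (7.14%) was 0.0% with TGTTTAC alone and 0.0% around midpoints. The MANE Select span in place of the gene record, chosen after seeing the data, moved no count by over 1.5 times. No paired analysis was possible because there is a single list for every construct, with no replicate numbers in it, and no replicate could be left out. With 21 FOXA1 members the intervals are wide, and the depth of the libraries behind the lists is unknown.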
